A study of Mus musculus with 78 samples.

Results

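Arteries of intermittently fasted mice were compared with those of freely fed mice 1 day after both carotid arteries had been narrowed. The labels placed 4 libraries in the fasted group and 3 in the freely fed group, which makes 7 of the 78 libraries of the series. All came from cerebral arteries of male wild-type C57Bl6 mice, of an age that the labels do not state. Both groups carried the same operation, bilateral carotid artery stenosis (BCAS), a model of chronically low blood flow to the brain. They differed in diet, either food at will (ad libitum, AL) or intermittent fasting (IF), kept up for 3 months before the operation. The groups are called BCAS IF and BCAS AL below, and replicates were numbered in the order of deposit. Sham-operated mice on the same diets (4 IF and 4 AL libraries on day 1) and BCAS mice on days 7, 14, 21 and 30 (32 libraries) served to show where the day 1 difference stood apart. Neither the fasting schedule nor the hour of collection is stated in the labels. Nothing said that the libraries came from separate animals, so p-values measure spread between libraries. That spread was pooled within the 20 groups of all 78 libraries and is not that of the 7 compared alone.

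Genes of the circadian clock and of the cell's chaperone systems are described first. In the clock, Clock or Npas2 pairs with Bmal1 (gene Arntl) to switch on the Period, Cryptochrome and Rev-erb genes, whose proteins then hold that pair back, and factors such as Dbp, Tef and Nfil3 pass the rhythm on through a sequence called the D-box. Endothelium and smooth muscle of arteries carry this clock, and the timing of meals is known to set its phase in tissues outside the brain. Heat shock proteins fold proteins in the cytosol, and a parallel set folds secreted proteins in the endoplasmic reticulum (ER). Each set is known to be switched on together through short promoter elements when unfolded protein builds up.

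Promoters of 7 genes that changed are printed here because they hold the elements by which these systems are known. They are RefSeq sequences on GRCm38.p6, written 5′ to 3′ along the gene. Each starts 250 bases before the RefSeq start and ends before the annotated gene. Capitals mark the D-box TTATGTAA in Per3, the E-box CACGTG (the site of the Clock and Bmal1 pair) in Ciart, the heat shock element GAANNTTC in Hspa1b and Hspb1, and the ER stress element (CCAAT and CCACG, 9 bases apart) in Calr, Creld2 and Hsp90b1, on either strand.
Per3: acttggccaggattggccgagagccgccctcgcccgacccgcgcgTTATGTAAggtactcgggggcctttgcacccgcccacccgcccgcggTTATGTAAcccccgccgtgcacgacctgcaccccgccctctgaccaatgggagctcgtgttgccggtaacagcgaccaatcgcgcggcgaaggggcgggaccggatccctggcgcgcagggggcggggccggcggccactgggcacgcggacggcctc
Ciart: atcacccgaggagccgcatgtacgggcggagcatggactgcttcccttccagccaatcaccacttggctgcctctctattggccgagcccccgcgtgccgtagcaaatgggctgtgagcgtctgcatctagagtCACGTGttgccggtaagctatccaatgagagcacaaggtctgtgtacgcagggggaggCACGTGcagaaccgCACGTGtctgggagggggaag
Hspa1b: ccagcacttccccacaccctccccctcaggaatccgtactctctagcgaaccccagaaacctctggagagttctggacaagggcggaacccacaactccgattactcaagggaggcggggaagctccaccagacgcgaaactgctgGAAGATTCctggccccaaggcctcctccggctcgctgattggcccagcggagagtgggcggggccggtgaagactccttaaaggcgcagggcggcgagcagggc
Hspb1: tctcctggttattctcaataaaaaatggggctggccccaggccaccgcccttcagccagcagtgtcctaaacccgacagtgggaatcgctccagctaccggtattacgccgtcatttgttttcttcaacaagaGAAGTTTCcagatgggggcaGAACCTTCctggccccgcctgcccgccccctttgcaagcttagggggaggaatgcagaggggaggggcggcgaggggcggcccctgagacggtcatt
Calr: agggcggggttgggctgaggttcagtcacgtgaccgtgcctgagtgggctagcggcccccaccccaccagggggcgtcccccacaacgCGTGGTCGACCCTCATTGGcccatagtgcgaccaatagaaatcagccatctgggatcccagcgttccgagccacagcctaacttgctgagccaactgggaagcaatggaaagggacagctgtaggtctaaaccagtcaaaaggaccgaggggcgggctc
Creld2: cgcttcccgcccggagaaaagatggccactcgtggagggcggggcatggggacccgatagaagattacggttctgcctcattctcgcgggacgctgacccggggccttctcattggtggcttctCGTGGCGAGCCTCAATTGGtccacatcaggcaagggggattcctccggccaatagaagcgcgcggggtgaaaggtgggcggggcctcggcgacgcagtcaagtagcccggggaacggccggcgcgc
Hsp90b1: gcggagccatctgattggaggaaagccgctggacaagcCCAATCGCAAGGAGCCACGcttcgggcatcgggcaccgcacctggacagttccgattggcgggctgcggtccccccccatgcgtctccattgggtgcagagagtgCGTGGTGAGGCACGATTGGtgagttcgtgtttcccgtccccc
The stretches lie at chr4:151044666-151044915 (Per3, minus strand), chr3:95882252-95882478 (Ciart, minus strand), chr17:34959239-34959488 (Hspa1b, minus strand), chr5:135887669-135887918 (Hspb1, plus strand), chr8:84846935-84847181 (Calr, minus strand), chr15:88819396-88819645 (Creld2, plus strand) and chr10:86705510-86705694 (Hsp90b1, minus strand). None of the capital runs overlapped a match of another element searched. Per3 held 2 D-boxes and Ciart 3 E-boxes.

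Both diets gave libraries of similar depth, from 16679313 to 23525091 fragments in the 7 compared, and from 14601572 to 25944175 fragments over the series. BCAS AL replicate 2 stood apart in genes under 300 bases, which took 0.279% of its fragments against 0.0566% to 0.106% in the other 6. The label cerebral artery was checked on 18 smooth muscle, 16 endothelial and 11 pericyte markers, none of which stayed under 1 FPKM (fragments scaled to gene length and library depth) in all 7 libraries. The same held for 16 fibroblast and meningeal, 10 microglia and 10 astrocyte markers, so the check does not show that the libraries held artery alone. The astrocyte markers summed to 308 to 371 FPKM in BCAS IF and 250 to 338 FPKM in BCAS AL. Of 8 fat cell markers 4 were under 0.1 FPKM in all 7 (Adipoq, Cidec, Lep and Ucp1), as were 3 of 10 skeletal muscle markers (Myh2, Myh4 and Tnnc2). Immunoglobulin Igkc read 5143 FPKM in BCAS IF replicate 2 and 8.67 to 64.1 FPKM in the other 6.

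After stenosis, 687 of 15707 genes tested (4.37%) differed between the diets at an adjusted p under 0.05 in limma. Of these, 322 were higher in IF (2.05% of genes tested) and 365 lower (2.32%). Most of the differences were small. The median size among the called genes was 0.40 on the log2 scale, at a median standard error (SE) of 0.10, and 39 of them exceeded 2-fold (15 higher and 24 lower). In 649 of the 687 the libraries of both groups did not overlap, against 18.2% of all genes tested. The median difference over all genes was 0.0. Differences are on the scale log2(FPKM + 1), which understates those of low genes. In bulk arteries, fewer cells of a type and less RNA per cell cannot be told apart.

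The number of calls depended on the fit and on single libraries. With only the 2 groups fitted the test called 255 genes, 211 of them among the 687. Without AL replicate 2 the test called 257 genes, 240 of them among the 687, and without AL replicate 3 it called 262 (246 among the 687). It called 452 without IF replicate 1 and 433 without IF replicate 3. Of the 30 leading genes, 15 in each direction, 19 were called whichever single library was left out.

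**Figure D1:**
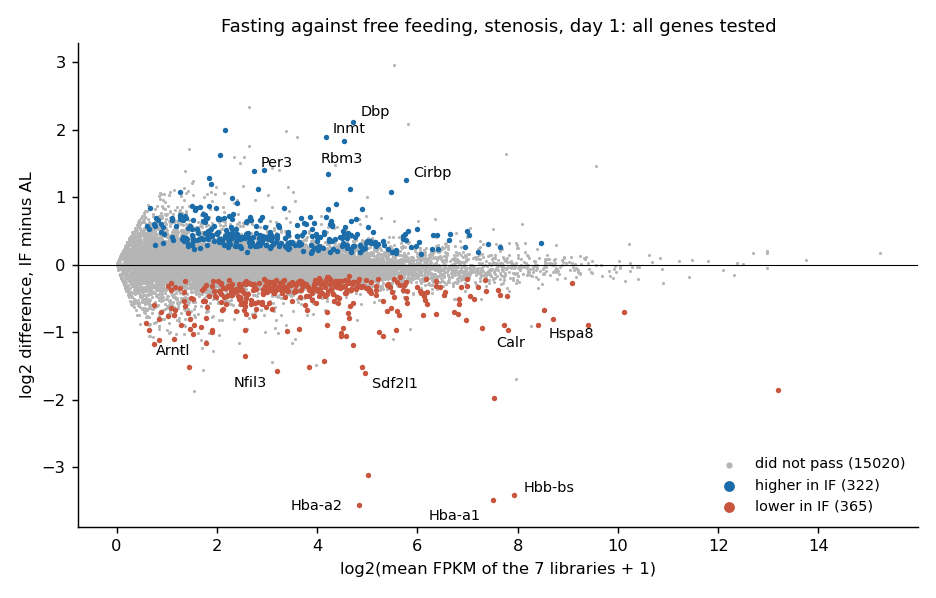
Each point is 1 of the 15707 genes tested, with the mean level of the 7 libraries on the x axis (log2 of FPKM + 1) and the log2 difference, IF minus AL, on the y axis. The 322 genes called higher and the 365 called lower are coloured, and the hemoglobin genes at the bottom fell the most.

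Several repressors of the clock rose in the fasted arteries, and the activators Arntl, Npas2 and Clock fell. Among 15 genes of the clock loop, 7 rose and 3 fell (median 0.55), against 2.05% and 2.32% of all genes tested. With 1 library left out, 7 (without AL replicate 3) to 10 of the 15 were called. The largest rise of all named genes was that of Dbp (ENSMUSG00000059824, chromosome 7 at 45705088 to 45710203 on GRCm38), a D-box activator. Its level was 38.3, 38.4, 35.9 and 40.1 FPKM in IF replicates 1 to 4, and 8.59, 7.94 and 7.58 FPKM in AL replicates 1 to 3. The lowest IF library was thus more than 4 times the highest AL library. The difference was 2.12 ± 0.28 (SE), or 4.34-fold (adjusted p = 5.56e-07).

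Per3 (ENSMUSG00000028957, chromosome 4 at 151003652 to 151044665), a Period repressor, had the smallest p of the named clock genes. It read 8.51, 8.21, 7.86 and 7.71 FPKM in IF and 2.37, 2.88 and 2.14 FPKM in AL, with no overlap. The rise was 1.39 ± 0.13 (adjusted p = 3.36e-12). Per2, its relative, read 9.81, 7.77, 7.10 and 8.29 FPKM in IF against 3.40, 3.41 and 2.84 FPKM in AL and rose by 1.13 ± 0.19. Ciart, a repressor of the Clock and Bmal1 pair, read 9.25, 8.55, 9.58 and 10.2 FPKM against 3.70, 3.40 and 1.91 FPKM. It rose by 1.41 ± 0.31 (adjusted p = 0.0036), but not without AL replicate 3 (adjusted p = 0.0657). All 3 repressors were thus higher in every fasted library.

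Further rises were those of Nr1d2, a Rev-erb repressor (0.89 ± 0.15), Cry2, a Cryptochrome (0.72 ± 0.10), and Bhlhe41, an E-box repressor (0.55 ± 0.13). Per1, which also responds to hormones and light, overlapped between groups. It read 22.3, 22.4, 16.6 and 13.9 FPKM in IF against 14.8, 10.7 and 10.3 FPKM in AL, and its difference of 0.61 ± 0.24 did not pass (adjusted p = 0.14). Nr1d1, the other Rev-erb, did not pass either, at 0.73 ± 0.27 (adjusted p = 0.121), although its lowest IF library (28.5 FPKM) lay above its highest AL library (23.7 FPKM).

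The activators moved the opposite way. Arntl read 1.22, 1.11, 1.21 and 1.54 FPKM in IF and 3.69, 4.18 and 4.25 FPKM in AL, and fell by 1.15 on the log2 scale (SE 0.16, adjusted p = 1.51e-06). Npas2 read 0.475, 0.361, 0.481 and 0.635 FPKM in IF and 2.21, 1.89 and 2.50 FPKM in AL, and was 2.15-fold lower in IF on the FPKM + 1 scale (adjusted p = 1.54e-05). Both partners were thus lower in every fasted library. Clock fell by 0.32 (SE 0.09, adjusted p = 0.022), a call that leaving out any of 5 of the 7 libraries ended.

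Among 9 output genes of the clock, 5 rose and 1 fell (median 0.64), against 2.05% and 2.32% of all genes tested. Tef, a D-box activator like Dbp, read 32.0, 33.5, 30.9 and 30.9 FPKM in IF and 15.9, 13.7 and 12.8 FPKM in AL, and rose by 1.12 ± 0.13 (adjusted p = 4.82e-09). Nfil3 (chromosome 13 at 52967209 to 52981073), which represses through the same D-box, was the 1 that fell. It read 4.84, 4.06, 3.28 and 3.87 FPKM in IF and 13.5, 14.5 and 13.3 FPKM in AL, a fall of 1.57 on the log2 scale (SE 0.19, adjusted p = 6.92e-08). Dbp and Tef thus rose where Nfil3 fell, while Hlf, the other D-box activator of the list, did not pass at 0.27 (adjusted p = 0.229). Tspan4, a tetraspanin membrane protein, rose by 1.08 ± 0.13, Usp2, a deubiquitinase, by 0.64 ± 0.14 and Wee1, a cell cycle kinase, by 0.66 ± 0.14, the last not without AL replicate 3 (adjusted p = 0.106).

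**Figure D2:**
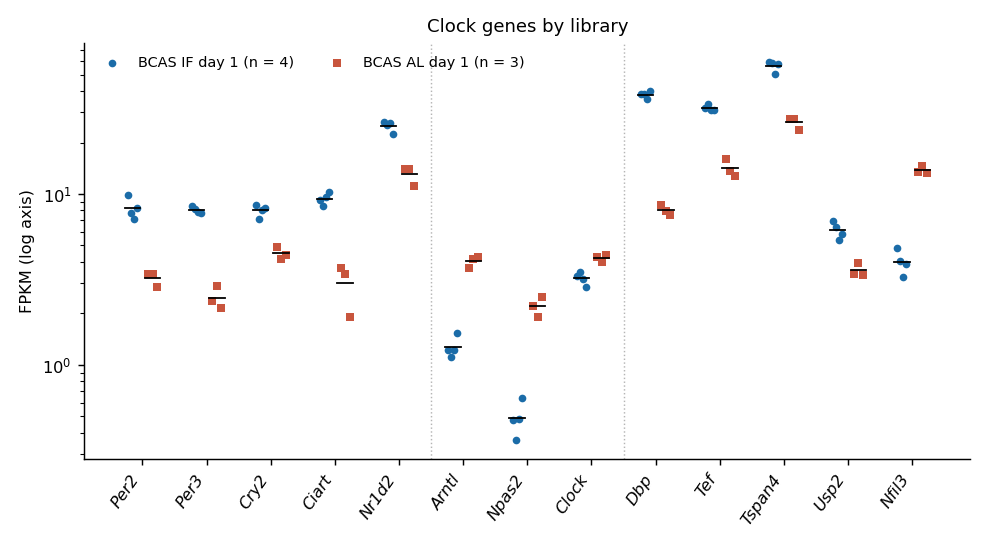
FPKM of 13 clock genes on a log axis, each point 1 library, circles for the 4 BCAS IF and squares for the 3 BCAS AL libraries, with a bar at each group mean. From left to right stand repressors, activators and outputs. The 13 were picked among called genes, so it follows largely from the choice that the groups overlap in none of them. In the full lists the groups did not overlap in 11 of 15 loop and 7 of 9 output genes, against 18.2% of all genes tested.

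The D-boxes and E-boxes printed above were not a feature of most clock genes in these windows of 250 bases before to 50 after a start. The D-box TTATGTAA was in 1 of the 8 changed loop genes that had a promoter in the table (Per3) and in 0.938% of all 32851 promoters. CACGTG was in 2 of those 8 (Ciart and Bhlhe41), in 2 of 5 changed output genes (Tef and Tspan4) and in 7.15% of all promoters. Among genes that did not pass, it was in 2 of 4 loop genes (Per1 and Cry1) and 1 of 3 output genes (Bcl6). The D-box variant TTACGTAA (0.119% of all promoters) and the cyclic AMP response element TGACGTCA (1.79%) were in none of the 8 and 5 changed genes. The latter was in Hlf, which did not pass. Here and below, a gene was counted if any promoter listed for it matched, while shares of all promoters count each promoter singly. A match is a run of letters and was not tested as a site.

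RNA-binding proteins that mild cold induces rose as well. Rbm3 (ENSMUSG00000031167, chromosome X at 8138975 to 8145880) read 26.1, 23.4, 21.9 and 24.9 FPKM in IF and 11.5, 8.28 and 7.27 FPKM in AL. The rise was 1.34 ± 0.15, or 2.54-fold (adjusted p = 1.69e-09). Cirbp read 66.3, 69.4, 74.1 and 79.2 FPKM in IF and 32.3, 27.0 and 30.0 FPKM in AL, and rose by 1.25 ± 0.23 (adjusted p = 0.000251). Every fasted library thus lay above every freely fed one in both genes. Srsf5, a splicing factor and the third gene of the list, did not pass at 0.33 ± 0.11 (adjusted p = 0.078). Rbm3-ps, a processed pseudogene of Rbm3, rose by 1.29 ± 0.36 (adjusted p = 0.0257), and fragments of the gene and of its copy may have been split between them.

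Cytosolic chaperones fell in the fasted arteries. All 18 heat shock genes measured had a negative difference, with a median of -0.65 against 0.0 over all genes. Of the 18, 13 fell and none rose, against 2.32% and 2.05% of all genes tested. Hspa8 (ENSMUSG00000015656, chromosome 9 at 40800984 to 40810087), the constitutive Hsp70, read 256, 255, 256 and 221 FPKM in IF and 397, 506 and 480.4 FPKM in AL. It fell by 0.90 on the log2 scale (SE 0.15, adjusted p = 0.000103). The Hsp110 gene Hsph1 read 14.4, 12.9, 14.2 and 15.3 FPKM in IF against 24.0, 36.1 and 32.8 FPKM in AL and fell by 1.06 (SE 0.20, adjusted p = 0.000721). The IF libraries lay close together in both genes, while the AL libraries spread and AL replicate 1 was their lowest.

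The Hsp90 pair fell too, Hsp90ab1 by 0.68 (SE 0.12) and Hsp90aa1 by 0.73 (SE 0.18, not without AL replicate 2, adjusted p = 0.103). So did cochaperones of Hsp70 and Hsp90: Dnaja1 fell by 0.89 (SE 0.19), Stip1 by 0.75 (SE 0.14), Chordc1 by 0.62 (SE 0.13) and Ahsa1 by 0.60 (SE 0.12). The mitochondrial chaperonin pair Hspe1 and Hspd1 fell by 0.52 (SE 0.14) and 0.38 (SE 0.09), neither without AL replicate 2. The stress-inducible Hspa1b read 9.27, 9.02, 8.74 and 7.92 FPKM in IF and 15.3, 43.5 and 23.3 FPKM in AL. Its fall of 1.42 (SE 0.43, adjusted p = 0.041) was lost on leaving out any of 6 libraries, and its near-identical neighbour Hspa1a did not pass at -0.74 (adjusted p = 0.30), so fragments may have been split between them. Dnajb1, an inducible partner of Hsp70, did not pass either (-0.27, adjusted p = 0.48).

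Without AL replicate 2, 7 of the 18 heat shock genes were called, and 10 to 13 without any other single library. GAANNTTC was in 7 of 10 fallen heat shock genes with a promoter in the table (Hspa1b, Hsph1, Dnaja1, Hspb1, Hspd1, Hspe1 and Chordc1), in 2 of 4 that did not pass, and in 7.86% of all promoters.

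Chaperones of the ER fell as well. Among 18 genes of the unfolded protein response 11 fell and none rose (median -0.65), against 2.32% and 2.05% of all genes tested. Sdf2l1 (ENSMUSG00000022769, chromosome 16 at 17130138 to 17132383), an ER cofactor induced by unfolded protein, read 11.3, 18.03, 16.8 and 15.2 FPKM in IF and 41.8, 66.6 and 39.9 FPKM in AL. It fell by 1.61 on the log2 scale (SE 0.24, adjusted p = 8.62e-06). Calr, the calcium-binding lectin chaperone, read 147, 146, 154 and 165 FPKM in IF and 249, 323 and 288 FPKM in AL and fell by 0.90 (SE 0.14, adjusted p = 3.11e-05). In both genes the highest fasted library was well below the lowest freely fed one.

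Creld2 and Manf, small secreted ER stress proteins, fell by 1.06 (SE 0.19) and 0.97 (SE 0.20). Hspa5, the ER Hsp70 (BiP), read 108, 108, 115 and 110.3 FPKM in IF and 199, 271 and 176 FPKM in AL. Its fall of 0.94 (SE 0.23, adjusted p = 0.00997) was not kept without AL replicate 2 (adjusted p = 0.123). Hsp90b1, the ER Hsp90, fell by 0.71 (SE 0.14), the disulfide isomerases Pdia6 and Pdia4 by 0.74 (SE 0.15) and 0.68 (SE 0.18), and the nucleotide exchange factor Hyou1 by 0.67 (SE 0.21, adjusted p = 0.0498). The stress transcription factors Atf4 and Xbp1 fell by 0.42 (SE 0.10) and 0.38 (SE 0.11). The call of Hyou1 was lost without any 1 of the 7 libraries, that of Xbp1 without any of 5, and that of Pdia4 without AL replicate 2, IF replicate 1 or IF replicate 3. With 1 library left out, 7 (without AL replicate 2) to 10 of the 18 genes were called.

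Of the 9 fallen ER genes with a promoter in the table, 5 held the ER stress element (Hspa5, Hsp90b1, Pdia6, Creld2 and Calr). So did 1 of 7 that did not pass (Dnajc3) and 0.119% of all promoters. This element was searched after the values had been seen.

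Of the next genes, P4ha1 is from the hypoxia list. Serpinh1 and Creb3l1 come from no list and were chosen after their values were seen. Serpinh1, the collagen chaperone Hsp47, read 154, 155, 152 and 162 FPKM in IF and 254, 375 and 301 FPKM in AL and fell by 0.97 (SE 0.16, adjusted p = 4.61e-05). P4ha1, a collagen prolyl hydroxylase that is also a hypoxia target, fell by 0.94 (SE 0.15), and Creb3l1, an ER-bound transcription factor for collagen genes, by 0.95 (SE 0.15). Of the 22 collagen chains measured none was called, with a median of 0.02.

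**Figure D3:**
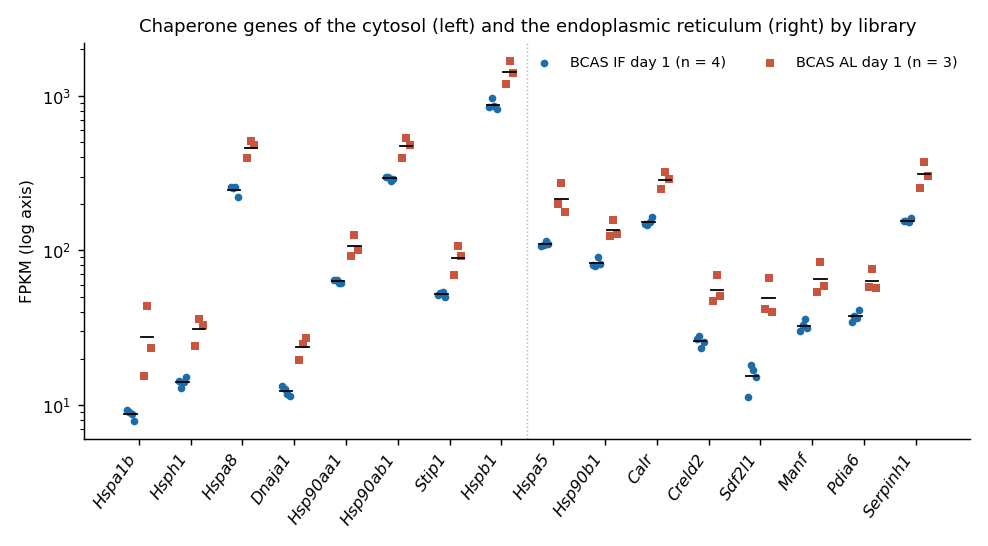
FPKM of 8 cytosolic and 8 ER chaperone genes on a log axis, circles for the 4 BCAS IF and squares for the 3 BCAS AL libraries, with a bar at each group mean. AL replicate 2 is the highest AL library in most of them. The 16 were picked among called genes, so it follows largely from the choice that the groups overlap in none of them. In the full lists the groups did not overlap in 17 of 18 heat shock and 13 of 18 ER stress genes, against 18.2% of all genes tested.

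The largest falls of all were in genes of red blood cells, and their calls depended on single libraries. Hba-a2 (ENSMUSG00000069917, chromosome 11 at 32296489 to 32297298), an alpha globin, read 2.30, 3.31, 3.32 and 2.96 FPKM in IF and 14.3, 109 and 58.0 FPKM in AL. It fell by 3.55 on the log2 scale (SE 0.89, adjusted p = 0.0106). Hbb-bs, a beta globin, read 24.4, 56.9, 41.2 and 37.8 FPKM against 190.2, 944 and 410.0 FPKM and fell by 3.42 (SE 0.95). Alas2, the erythroid heme synthesis enzyme, read 0.193, 0.893, 0.395 and 0.211 FPKM against 1.30, 6.03 and 2.92 FPKM and fell by 1.51 (SE 0.38). In each of them all AL libraries lay above all IF libraries and AL replicate 2 was the highest.

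Hba-a1 and Hbb-bt, near-identical partners of these globins between which fragments may have been split, fell by 3.48 and 3.11. Of 7 red blood cell genes measured, 5 fell (median -3.11), against 2.32% of all genes tested. Without AL replicate 2 none of the 7 was called, and without AL replicate 3 or IF replicate 1, 2 were called. The 10 red blood cell markers summed to 114 to 173 FPKM in BCAS IF, 427 to 1953 FPKM in BCAS AL, 137 to 179 FPKM in sham IF and 73.1 to 145 FPKM in sham AL, and Epb42 was under 0.1 FPKM in all 7 libraries. The 3 stenosed, freely fed libraries were thus above the other 3 groups of day 1. The platelet glycoprotein Gp9 read 4.46 FPKM in AL replicate 2 and at most 0.826 FPKM elsewhere in the 7, and its call (adjusted p = 0.0498) was lost without any of 6 libraries. It was the only 1 called of 5 platelet genes measured, of which 2 had a positive and 3 a negative difference (median -0.16). Whether blood left in the vessels moved with the other gene groups was not tested.

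Other leading rises covered several functions. Inmt (chromosome 6 at 55170626 to 55175043), an amine methyltransferase, read 25.4, 26.8, 22.6 and 25.4 FPKM in IF and 5.50, 9.28 and 4.12 FPKM in AL. It rose by 1.90 ± 0.21, or 3.72-fold (adjusted p = 1.69e-09). Dgat2, the last step of triglyceride synthesis, rose by 0.92 ± 0.18, Mthfd1l, a mitochondrial folate enzyme, by 0.87 ± 0.14, and Clic3, an intracellular chloride channel protein, by 1.19 ± 0.28 (not without AL replicate 3, adjusted p = 0.077). The noncoding transcript Scarletltr read 3.05, 4.89, 8.15 and 6.28 FPKM in IF and 1.58 and 0.522 FPKM in AL replicates 1 and 2, and was listed at 0 in AL replicate 3. Its rise was 2.00 ± 0.38.

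Among the other leading falls, Spon2 (chromosome 5 at 33198184 to 33218455), a secreted matrix protein, read 2.02, 2.77, 2.49 and 2.98 FPKM in IF and 7.63, 8.999 and 7.67 FPKM in AL. It fell by 1.36 (SE 0.18, adjusted p = 6.12e-07), and its groups were far apart. Ccl12, a monocyte chemokine, read 19.8, 15.8, 13.9 and 10.8 FPKM in IF and 33.7, 35.6 and 70.5 FPKM in AL, and its fall of 1.51 (SE 0.38) did not pass without AL replicate 3 (adjusted p = 0.153). Plat, the tissue plasminogen activator, read 34.3, 34.7, 36.3 and 33.9 FPKM in IF and 62.6, 49.9 and 51.8 FPKM in AL and fell by 0.63 (SE 0.10, adjusted p = 7.27e-06). It was 1 of 2 protease genes called among 20, with the procollagen peptidase Adamts2 (0.29, lost without any of 6 libraries). Tgfb3, a TGF-beta ligand, fell by 0.73 (SE 0.18) and its coreceptor Tgfbr3 rose by 0.35, the only 2 called of 26 genes of that pathway and neither without AL replicate 2 or 3.

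Cdkn1a, the p21 cell cycle inhibitor that p53 and glucocorticoids raise, read 18.5, 14.3, 13.6 and 14.7 FPKM in IF and 35.7, 31.2 and 31.0 FPKM in AL. It fell by 1.05 (SE 0.21, adjusted p = 0.00113), with no overlap. Of 13 p53 targets 3 fell, against 2.32% of all genes tested. Beside Cdkn1a these were Gdf15, a stress cytokine, at -0.81 (lost without AL replicate 2) and Ccng1, a cyclin, at -0.28 (lost without any 1 library). Of 17 glucocorticoid-responsive genes Cdkn1a was the only 1 called. Fkbp5, a chaperone partner of the glucocorticoid receptor, stood at 0.72 ± 0.28 (adjusted p = 0.137) and Tsc22d3 at 0.35 ± 0.20.

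Genes that fasting is known to change in liver and muscle are given beside the 4.37% called of all genes, and their shares were not tested against it. Pdk4, which spares glucose by blocking pyruvate oxidation, stood at -0.04 ± 0.22 and overlapped between diets (11.7 to 18.1 FPKM in IF, 10.9 to 18.01 FPKM in AL). Of 32 fatty acid oxidation genes 2 rose, Fabp3, a fatty acid carrier (0.60), and Acaa2, a thiolase (0.28), with a median of 0.05. Leaving out any of 5 libraries ended either call. No member was called among 23 cholesterol synthesis, 13 fatty acid synthesis, 22 autophagy, 14 sirtuin and 12 IGF genes. Txnip, which limits glucose uptake, was the 1 of 19 FoxO and insulin genes called (0.50 ± 0.11, adjusted p = 0.00279, lost without AL replicate 2).

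Of 24 Nrf2 antioxidant genes 4 rose and none fell, with a median of 0.05: the glutathione transferases Gsta3 (0.86 ± 0.16) and Gsta4 (0.44), the quinone reductase Nqo1 (0.65 ± 0.15) and the peroxiredoxin Prdx6 (0.30). Gsta3 alone of the 4 was called whichever library was left out. Beside this and the next counts, 2.05% of all genes tested were called higher and 2.32% lower. Of 30 hypoxia genes Pdk1, a pyruvate dehydrogenase kinase, rose (0.64 ± 0.11), while P4ha1, the enolase Eno1 (-0.34) and the oxygen sensor Egln1 (-0.24) fell. Of 30 histone genes measured 6 fell and 1 rose (median -0.33). Hist2h3c2 fell by 0.99 and Hist1h4h by 1.02, and the linker histone H1f0 rose by 0.53, none of the 3 called whichever library was left out.

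In the artery wall, none of 18 contractile smooth muscle, 16 endothelial, 12 arterial endothelial, 11 pericyte, 24 vasoactive, 24 smooth muscle ion channel or 27 basement membrane genes was called, with medians from -0.10 to 0.06. Acta2, smooth muscle actin, read 4529 to 5477 FPKM in IF and 5070 to 5676 FPKM in AL (-0.16 ± 0.21). Nos3, the endothelial nitric oxide synthase, read 39.1 to 46.6 FPKM in IF and 37.3 to 49.6 FPKM in AL (0.07 ± 0.15). The groups overlapped in both. Other lists did have members called higher in IF. These were 2 of 10 microglia genes (Olfml3 and Gpr34, list median 0.29) and 1 of 10 astrocyte genes (Aldh1l1, list median 0.21). So were 1 of 16 fibroblast and meningeal (Slc13a4), 1 of 5 choroid plexus and ependyma (Enpp2) and 1 of 25 barrier genes (Slco1a4), against 2.05% of all genes. Without AL replicate 3 none of the genes in these lists was called. In all, 34 of the 63 lists had no member called.

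Interferon-induced genes were high in 1 freely fed library. All 22 had a negative difference (median -0.41), and 1 of them, Rsad2, an antiviral enzyme, was called (-0.92 ± 0.26, adjusted p = 0.0292). It read 1.09, 0.825, 1.39 and 0.780 FPKM in IF, 1.19 and 1.55 FPKM in AL replicates 1 and 2, and 8.76 FPKM in AL replicate 3. Without that library its adjusted p was 0.759 and none of the 22 was called, while without AL replicate 1, 8 were. Isg15 was likewise highest there, at 148 FPKM against 34.8 and 67.6 FPKM in the other AL libraries.

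**Figure D4:**
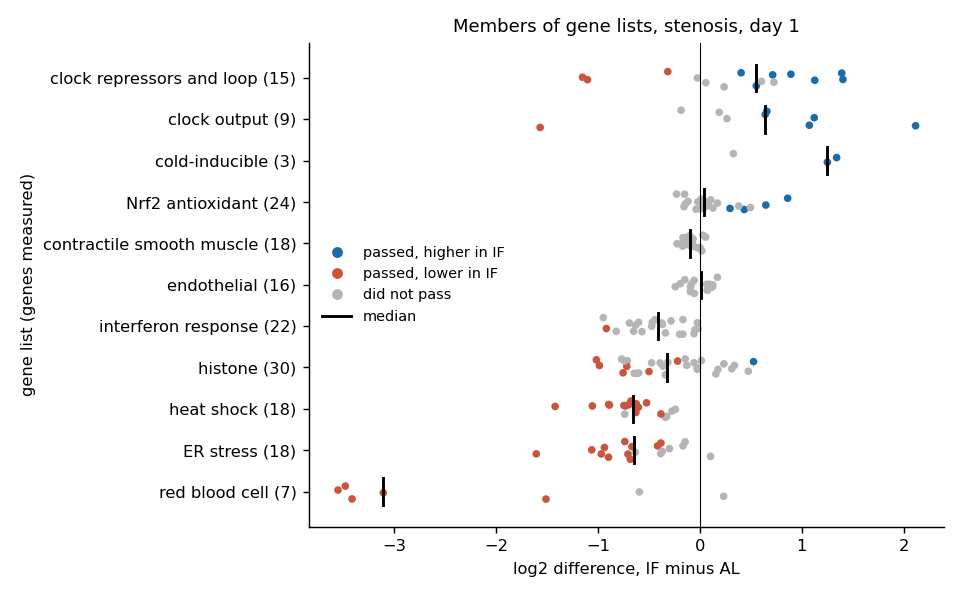
Log2 difference (IF minus AL) of the measured members of 11 gene lists, 1 point per gene, coloured where called, with a black bar at the median and the number of genes in brackets. All 18 heat shock genes and 17 of 18 ER stress genes lie left of 0, and the smooth muscle and endothelial genes lie around 0 with none called.

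Whether the diet difference after stenosis stood apart from that after the sham operation was tested as a difference of differences. No gene passed (0 of 15707, 0.0%) in limma, or in limma-voom on recovered fragments, and 927 had an unadjusted p under 0.05. After the sham operation 577 genes were called (3.67%), 286 higher in IF (1.82%) and 291 lower (1.85%), or 304 higher and 160 lower in limma-voom. That count was 27 with only the sham groups fitted, and 138, 184, 194 and 323 without sham AL replicate 1, IF replicate 2, IF replicate 3 and AL replicate 4. The stenosis and sham differences share no library, but the difference of differences uses the same 7 stenosis libraries as the results above. Per3 was among the 5 genes with the smallest p: its rise was 1.39 ± 0.13 after stenosis and 0.66 ± 0.12 after the sham operation, a difference of 0.73 (unadjusted p = 6.53e-05, adjusted p = 0.295). Plekhm2, a lysosome positioning adaptor, stood at -0.06 ± 0.08 after stenosis and 0.41 after the sham operation (unadjusted p = 3.89e-05, adjusted p = 0.295). Neither passed, and neither did D17Wsu92e, Gm29683 or Gm10175 (each at adjusted p = 0.295).

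The groups of genes compared as follows on day 1. Of the 15 loop genes 7 rose and 3 fell after stenosis, and 5 rose and 2 fell after the sham operation, with medians of 0.55 and 0.32. Heat shock genes had 13 falls and a median of -0.65 after stenosis, and 8 falls and -0.39 after the sham operation. ER stress genes had 11 falls and -0.65, and 8 falls and -0.48. Of the 3 cold-inducible genes 2 rose after stenosis and all 3 after the sham operation, with medians of 1.25 and 0.99. The medians lay furthest apart for red blood cell genes, with -3.11 after stenosis and 0.68 after the sham operation, where none was called. Hba-a2 had a difference of differences of -4.70 ± 1.21 (unadjusted p = 0.000255, adjusted p = 0.476). Cdkn1a stood at -1.05 and -0.27 (adjusted p = 0.691 for the difference) and Pdk4 at -0.04 and 0.71 (adjusted p = 0.709).

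Set against the mean of the diet differences on days 7, 14, 21 and 30 of stenosis, day 1 differed for 1 gene of 15707 (0.00637%), Rbm3, and 1059 had an unadjusted p under 0.05. This comparison again uses the 7 libraries of day 1. The rise of Rbm3 was 1.34 ± 0.15 on day 1, 0.64 ± 0.14 on day 7 and 0.76 ± 0.14 on day 14, and the values on days 21 and 30 were 0.00 ± 0.14 and 0.28 ± 0.14. Day 1 exceeded the mean of the later days by 0.93 ± 0.16 (adjusted p = 0.0043). This call was lost without AL replicate 3, when no gene passed. The later libraries read 9.43 to 21.7 FPKM in IF and 7.74 to 17.1 FPKM in AL, so the 4 day 1 IF libraries (21.9 to 26.1 FPKM) stood above all of them.

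The next genes by p did not pass: the pseudogene Gm48583 (1.33 above the later days, adjusted p = 0.155), the tubulin Tuba1b (-0.41, adjusted p = 0.216), the stress factor Atf5 (-0.70, adjusted p = 0.234) and the primase Prim1 (-0.42, adjusted p = 0.234). For Dbp the difference between day 1 and later days was 0.20 (adjusted p = 0.945), and for Arntl 0.17 (adjusted p = 0.888). The median of the ER stress list was -0.65 on day 1, -0.52 on day 7, -0.36 on day 14, -0.03 on day 21 and -0.49 on day 30. For heat shock genes the medians on those days were -0.65, -0.42, -0.83, -0.26 and -0.44, and for the clock loop 0.55, 0.48, 0.70, 0.17 and 0.40. In each of the 3 lists the median nearest 0 was that of day 21.

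**Figure D5:**
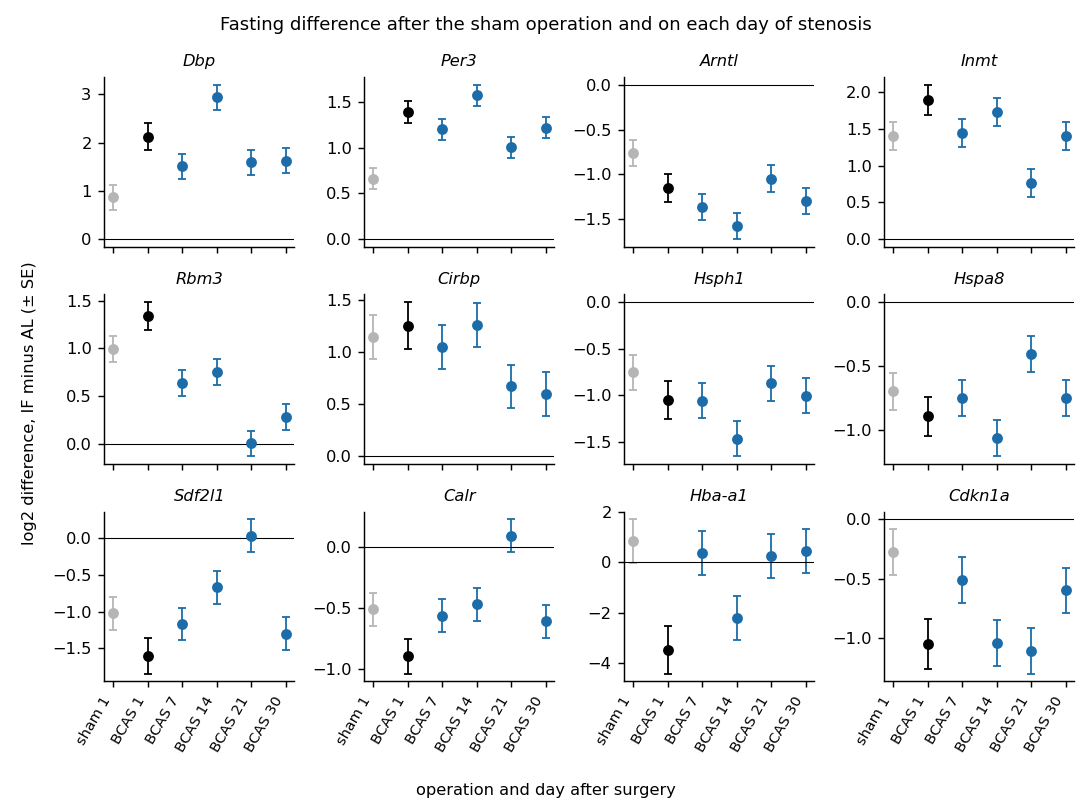
Log2 difference, IF minus AL, with its SE for 12 genes after the sham operation on day 1 (grey), after stenosis on day 1 (black) and on days 7 to 30 of stenosis (blue), each panel with its own y axis. Rbm3 stands highest on day 1 of stenosis and near 0 on day 21, and Hba-a1 is lower in IF on days 1 and 14 and above 0 elsewhere.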

How the data were processed

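Cerebral artery RNA was sequenced in 78 libraries. A column kit gave the RNA, of which 2 µg entered each library, per the labels' protocols. Per the file headers, the authors deposited 1 table that holds gene lengths and FPKM values of 54532 genes. The submitters' processing notes list DESeq 1.10.1 and do not say what it was used for. Aligner, counter, build and strand setting were not named there. Among 54409 genes found in GENCODE M21, 98.3% matched it in start and end, and positions are therefore given on GRCm38.

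FPKM times gene length gave whole fragments for 100% of values under 1000 fragments (tolerance 0.05), hence the depths. The filter kept 15707 genes that reached 1 FPKM in 3 or more libraries. limma 3.58.1 (R 4.3.3, statmod 1.5.0; trend and robust) was fitted to log2(FPKM + 1) with a mean for each of 20 groups over all 78 libraries. P-values are two-sided and Benjamini-Hochberg adjusted over all genes, with a threshold of 0.05. The steps were tested on simulated data. No 2 libraries were identical. Promoters came from RefSeq.

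Genes were named by rule: the 15 largest rises and 15 largest falls called without overlap and at 1 FPKM or more in a group, leaving out predicted genes, then up to 3 genes with the smallest p in each of 63 lists, the 5 smallest p of each difference test, and a panel. Others were chosen after their values were seen. A few genes that the rule names are not reported here. The members and lists were chosen with earlier results of these data known. Lists are described by counts and medians, with no test of a list. Alternatives were another pseudocount (0.1), other filters, only the groups compared, median centring, limma-voom, plain limma and leaving out each library.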

Additional observations from a re-analysis of the deposited data

Results flagged for a closer look

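In BCAS IF on day 1, 1 library stood apart from the other 3 in 3 of the 62 named genes examined, and chance marks about 1 in 20 groups of 4. Mthfd1l read 1.96 FPKM in replicate 3 against 2.66 to 2.74 FPKM in the others. D17Wsu92e read 22.9 FPKM in replicate 2 against 21.2 to 21.4 FPKM, and Gm10175 read 3.23 FPKM in replicate 4 against 3.98 to 4.14 FPKM. The diet difference of Rbm3 on day 1 exceeded its mean on later days by 0.93 ± 0.16 on the log2 scale (adjusted p = 0.0043, higher in 4 of 4 IF libraries on day 1). It was the only 1 of 15707 such differences to pass in limma, and none passed without AL replicate 3.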

How the results depend on the processing

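The count of changed genes was 687. It was 659 with a pseudocount of 0.1, 814 without a filter, 634 with at least 5 FPKM, 673 with centred values, 685 without trend or robust options and 701 with limma-voom, and 255 when only the 2 groups were fitted. Leaving out 1 library gave 257 to 716. None of the 687 changed sign under these settings, and 140 of the 687 were called whichever library was left out. Without a filter, 301 were higher and 513 lower, against 322 and 365.

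For the difference between stenosis and sham, no filter gave 9 genes and leaving out 1 library gave 0 to 1 (1 without sham AL replicate 3), and the other settings gave 0. For day 1 against later days, no filter gave 19, only the groups compared gave 3, and leaving out 1 library gave 0 to 9 (9 without AL replicate 1, 3 without AL replicate 2). The sham count of 577, whose alternatives were chosen after seeing the data, was 27 with only its groups fitted, 398 without a filter, 464 with limma-voom (304 higher and 160 lower, against 286 and 291) and 138 to 643 with 1 library left out (138, 184, 194 and 323 without sham AL replicate 1, IF replicate 2, IF replicate 3 and AL replicate 4). The cause was not tested.

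Of 114 named genes that were called, 55 lost the call when only the 2 groups were fitted, 50 without AL replicate 2, 51 without AL replicate 3, 13 to 29 without any other library, 16 without a filter 3 without trend or robust options, 4 with a pseudocount of 0.1, 5 with centred values and 7 with limma-voom. At least 5 FPKM was reached by 98 of the 114, all of them called. None of the 114 changed sign. Named genes near 0 that were not called changed sign when 1 library was left out, with these ranges: Crispld2 -0.056 to 0.163, Myh11 -0.049 to 0.118, Nos3 -0.008 to 0.193, Pdk4 -0.257 to 0.083, Pi15 -0.157 to 0.129, Plekhm2 -0.099 to 0.019, Ptp4a3 -0.081 to 0.077, Vcam1 -0.044 to 0.060 and Vegfa -0.052 to 0.148.

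No paired analysis was possible because the labels give the groups no shared replicate numbers. In the shallowest of the 7 libraries 1 FPKM of a gene of 1 kilobase is 16.8 fragments, so differences of genes near 1 FPKM rest on few fragments.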

Other observations

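Gene families outside the lists, chosen after their values were seen and not tested as families, also held called genes. Of all genes tested, 2.05% were called higher in IF and 2.32% lower. Because of how the families were chosen, their counts cannot show that a family moved as a whole. Of the 8 subunits of the cytosolic chaperonin that folds actin and tubulin, 5 fell in fasted arteries, all 8 had a negative difference and the median was -0.29. Cct3 fell by 0.33 (SE 0.09) and Cct7 by 0.28 (SE 0.07), neither without AL replicate 2 or 3. Of 11 tubulins, its substrates, 6 fell (median -0.39). Tuba1a read 127, 107, 112 and 120.3 FPKM in IF against 135, 175 and 193 FPKM in AL and fell by 0.51 (SE 0.13, lost without AL replicate 2 or 3), while Tuba1b fell by 0.47 (SE 0.08) and was called with any 1 of the 7 libraries left out.

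Of 24 genes of lysosomal glycan and sulfate breakdown, 7 were higher in IF and none lower, with a median of 0.20. The 7 were the glycosidases Naglu, Fuca1 and Man2b2, the sulfatases Galns and Arsg, the acetyltransferase Hgsnat and Sumf1, which activates sulfatases in the ER. Of 22 genes of branched-chain amino acid breakdown, 3 rose (median 0.11): Ivd (0.46 ± 0.08), Pccb (0.29 ± 0.07) and Aldh6a1 (0.30 ± 0.09).

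Mitochondrial ribosomal RNA was lower in fasted arteries, while none of the 13 proteins of the mitochondrial genome was called (median 0.03). mt-Rnr1 read 422, 516, 644 and 421 FPKM in IF against 833, 1016 and 899 FPKM in AL, a difference of -0.89 ± 0.17 (adjusted p = 0.0007). mt-Rnr2 differed by -0.81 ± 0.18. After the sham operation the differences were -0.62 and -0.59, both also called.

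Oas2, an interferon-induced gene, fell by 1.00 (SE 0.25) and was not called without AL replicate 3 (adjusted p = 0.158). Pituitary growth hormone RNA (Gh) read 23.04 to 339 FPKM in the 7 libraries and did not differ by diet beyond its spread (adjusted p = 0.957).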
